A study of Mus musculus with 2 samples.

Results

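The open promoters of long noncoding RNA (lncRNA) genes were described in MN1, an immortalized mouse cell line, by DNase-seq, which maps DNase I hypersensitive sites, stretches of chromatin that the nuclease cuts more often than their surroundings. Overlapping peaks of both libraries (1 bp or more) were joined into shared regions, each holding at least 1 peak from each replicate. A shared region on chromosomes 1 to 19 was taken as a lncRNA promoter when its centre lay within 500 bp of a transcription start site (TSS) of a GENCODE M21 gene of type lincRNA, antisense or processed_transcript and more than 2.5 kb from any TSS of a protein-coding gene. By this rule 1500 regions were taken from 125221 shared regions on these chromosomes and 127806 on all main chromosomes. They lay at TSSs of 1104 lncRNA genes. A further 1807 shared regions near lncRNA TSSs lay within 2.5 kb of a coding TSS and were left out, since a promoter that both kinds of gene share cannot be given to either.

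Both libraries came from MN1 cells of strain B6NCrl treated with 10 nM of the synthetic androgen methyltrienolone, in 1 group of 2 biological replicates. An untreated library was not analysed here, and the values therefore describe treated cells of 1 line, not a response to the androgen. The labels give no tissue. For replicate 1 they name 2 sequencing instruments, HiSeq 2500 and NextSeq 500, and for replicate 2 none. Promoters of protein-coding marker genes were open at 7 of 7 neuronal, 2 of 3 motor neuron, 2 of 4 fibroblast, 1 of 3 glial and 0 of 3 blood genes. These lists are short, and over all protein-coding genes on chromosomes 1 to 19 the share was 58.6%. The peak lists held 189648 distinct peaks in replicate 1 and 170745 in replicate 2. How deeply either library was sequenced is unknown, as no reads were used here, and where no peak was called a TSS may still be open.

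Long noncoding RNAs are transcripts that do not encode a protein of the usual length. Many are made by RNA polymerase II from promoters built like those of messenger RNAs, but more of these promoters lack a CpG island, a stretch of sequence rich in CpG and GC that keeps many housekeeping promoters open. Some lncRNA genes act through the RNA, some through the act of transcription, and some mainly carry microRNAs or small nucleolar RNAs (snoRNAs) in their transcript.

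The central 150 bp of 8 lncRNA promoters show what these regions look like, each on the strand of the lncRNA gene, in the mouse assembly GRCm38 (mm10), read from its RefSeq sequence. Rab10os ranked first when each region was taken at the lower of its score percentiles in the 2 replicates, and Malat1, Neat1 and Trp53cor1 are well-known lncRNA genes. The other regions were the highest-ranked lncRNA promoters with a match to the SP/KLF, AP-1, CTCF and RFX motifs. Capitals mark matches on either strand to the motifs sought, other than the short and frequent motifs of NFY, the TATA box and TAATTA, and neighbouring matches run together.
Rab10os, chr12:3235385-3235534: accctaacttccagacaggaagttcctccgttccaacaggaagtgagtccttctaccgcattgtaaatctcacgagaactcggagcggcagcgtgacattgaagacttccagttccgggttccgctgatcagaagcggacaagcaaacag
Malat1, chr19:5802575-5802724: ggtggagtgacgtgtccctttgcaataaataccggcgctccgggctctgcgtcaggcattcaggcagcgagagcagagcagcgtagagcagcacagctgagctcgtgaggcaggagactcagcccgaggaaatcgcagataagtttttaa
Neat1, chr19:5845785-5845934: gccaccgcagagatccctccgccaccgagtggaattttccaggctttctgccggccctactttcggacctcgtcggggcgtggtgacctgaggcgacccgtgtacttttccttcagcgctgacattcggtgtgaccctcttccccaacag
Trp53cor1, chr17:29078985-29079134: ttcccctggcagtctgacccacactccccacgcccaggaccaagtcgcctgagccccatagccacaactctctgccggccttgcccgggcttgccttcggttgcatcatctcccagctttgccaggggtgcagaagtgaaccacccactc
6720427I07Rik, chr13:48546585-48546734, SP/KLF: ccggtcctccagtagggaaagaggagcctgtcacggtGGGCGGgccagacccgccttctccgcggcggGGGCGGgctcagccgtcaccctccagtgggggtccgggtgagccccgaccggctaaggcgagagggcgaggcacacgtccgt
Gm37170, chr3:52198115-52198264, AP-1: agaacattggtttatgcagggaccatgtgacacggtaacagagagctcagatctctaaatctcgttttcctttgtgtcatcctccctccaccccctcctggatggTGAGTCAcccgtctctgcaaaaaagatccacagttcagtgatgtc
Gm26863, chr15:38384775-38384924, AP-1, CTCF and SP/KLF: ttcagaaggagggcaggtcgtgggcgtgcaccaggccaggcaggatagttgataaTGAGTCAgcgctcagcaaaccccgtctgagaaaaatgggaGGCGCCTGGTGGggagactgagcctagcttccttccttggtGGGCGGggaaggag
1700064M15Rik, chr12:99627945-99628094, SP/KLF and RFX: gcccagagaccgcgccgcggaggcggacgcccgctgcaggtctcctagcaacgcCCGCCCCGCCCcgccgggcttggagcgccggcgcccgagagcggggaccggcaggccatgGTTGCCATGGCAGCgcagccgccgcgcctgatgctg

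An open promoter was found at fewer lncRNA genes than protein-coding genes. Of 6846 lncRNA genes on chromosomes 1 to 19 with a TSS more than 2.5 kb from any coding TSS, 1103 had a shared region centred within 500 bp of such a TSS, a share of 16.1% (95% Wilson interval 15.3% to 17%). Among 20807 protein-coding genes the number with a region within 500 bp of a TSS was 12196, a share of 58.6% (57.9% to 59.3%). Wilson intervals cover counting error only, and with 1 group of 2 libraries no difference between sets of regions or genes was tested. Among the lncRNA types, genes of type processed_transcript had a region at 28.7% (24.7% to 33.0%) of 457 genes, lincRNA genes at 15.2% (14.2% to 16.3%) of 4727 and antisense genes at 15.2% (13.5% to 17%) of 1662. With the peaks of 1 library alone the share was 18.3% in replicate 2 and 19.95% in replicate 1 for lncRNA genes, against 59.8% and 60.9% for protein-coding genes. A protein-coding gene had a median of 3 annotated TSSs and a lncRNA gene a median of 1, so a coding gene had more positions at which a region could count. With the 5′ end of the gene as its only TSS, the share was 15.9% for lncRNA genes and 53.5% for protein-coding genes.

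The regions at lncRNA genes were centred on the TSS, as they were at coding genes. In the 100 bp just upstream of the 5′ end, 5.23% of 6689 lncRNA genes and 24.8% of 20807 coding genes had a region centre. Within 500 bp of the 5′ end, 14.9% of these lncRNA genes had a region, whereas at points 5 and 10 kb to either side that were not near another TSS the share was 5.06% to 5.27%. Some regions can thus lie near a lncRNA TSS by position alone, and the rule does not set them apart from promoters. The region centre lay upstream of the TSS in 58.6% of lncRNA promoters and in 58.1% of protein-coding promoters. It lay within 150 bp of the TSS in 50.4% (47.9% to 52.9%) of lncRNA promoters, against 61.3% (60.7% to 62.0%) of protein-coding promoters.

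**Figure D1:**
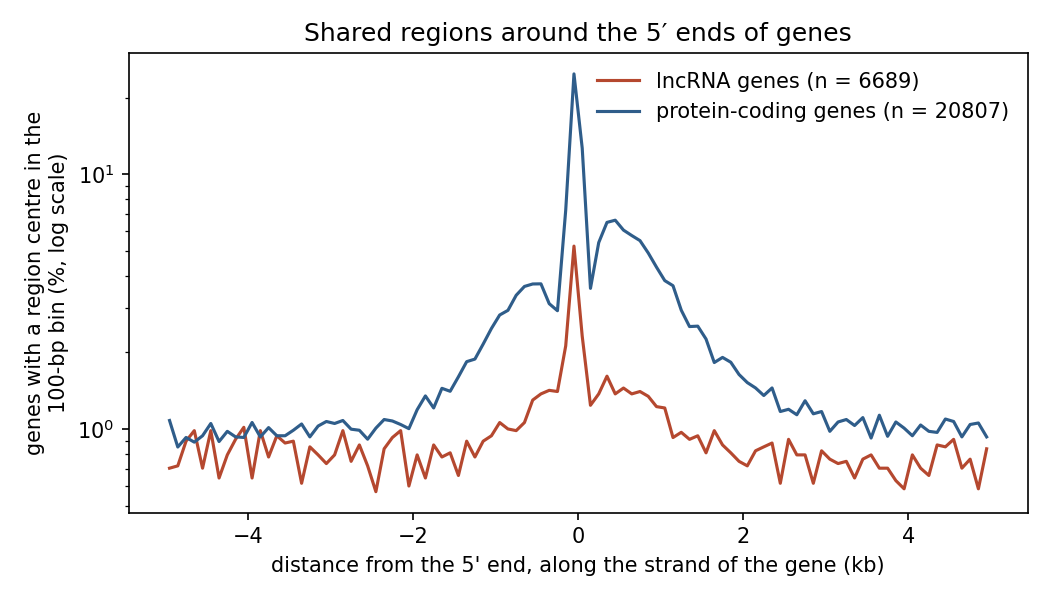
Percentage of genes with the centre of a shared region in each 100-bp bin (log scale) against the distance from the 5′ end of the gene in kb, negative upstream, for lncRNA genes whose 5′ end is more than 2.5 kb from a coding TSS and for protein-coding genes. Both curves peak in the 100 bp upstream of the 5′ end, at 5.23% of lncRNA genes and 24.8% of protein-coding genes.

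CpG content divided the lncRNA genes. The 1 kb around a position was called high in CpG when its observed over expected CpG ratio was at least 0.75 and its GC content at least 55%, low when the ratio was under 0.48, and intermediate otherwise, and a gene took the highest class among its TSSs. For lncRNA genes only TSSs more than 2.5 kb from any coding TSS counted, and 6846 genes had one. Of these genes 1.36% were high and 91.6% low, against 32.2% and 37.6% of protein-coding genes. Coding genes met no such filter and took the highest class over more TSSs. How far this set the contrast was not tested. In the high class 52 of 93 lncRNA genes had a region, 55.9% (45.8% to 65.6%), against 88.8% (88.1% to 89.6%) of coding genes. In the intermediate class the shares were 44.3% (39.9% to 48.8%) for lncRNA genes and 77.1% (76.1% to 78.1%) for coding genes. In the low class they were 13.3% (12.5% to 14.2%) and 17.9% (17% to 18.7%). Within each class the share of lncRNA genes lay below that of coding genes, with a gap of over 30 percentage points in the high and intermediate classes and under 5 in the low class.

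**Figure D2:**
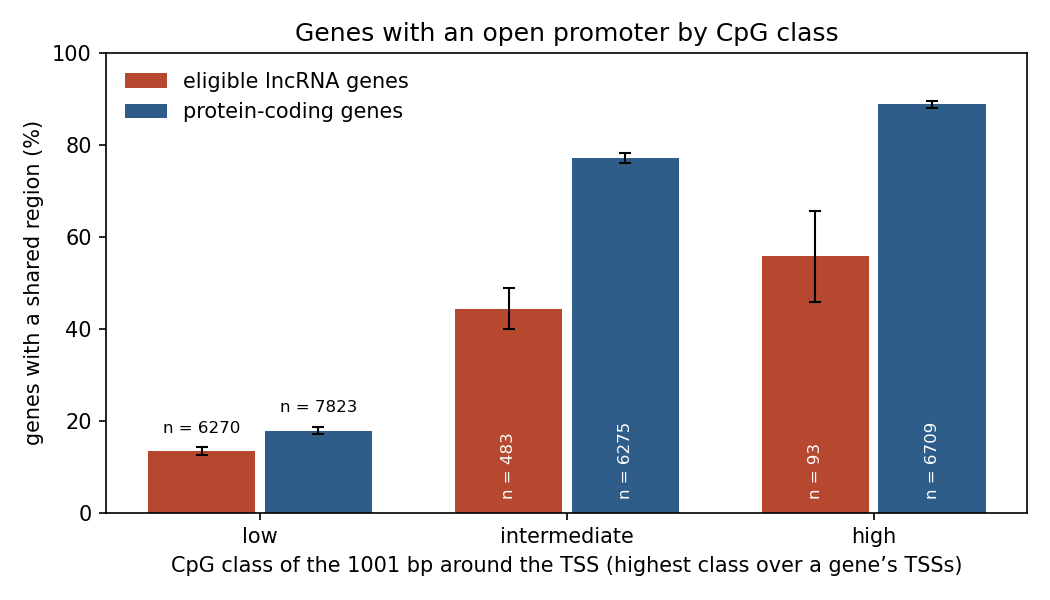
Percentage of genes with a shared region within 500 bp of a TSS, by CpG class, with 95% Wilson intervals. Left bars are lncRNA genes with a TSS more than 2.5 kb from any coding TSS, and right bars all protein-coding genes. The share of lncRNA genes was 13.3% in the low, 44.3% in the intermediate and 55.9% in the high class, below that of protein-coding genes in each.

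Open lncRNA promoters were themselves mostly poor in CpG. Of the 1500 regions 1149 (76.6%) were low, 287 (19.1%) intermediate and 64 (4.27%) high. Regions within 2.5 kb of a coding TSS, which the rule left out, are not part of these shares. Of 22387 shared regions within 500 bp of a coding TSS, 26.9% were low and 34.2% high, and of 74678 distal regions, more than 2.5 kb from any TSS, 97.2% were low. The share of CpG-rich lncRNA promoters was 7.68% when the 5′ end was taken as the only TSS of every gene, which admits regions at inner TSSs of coding genes. The median GC content of this 1 kb was 50.2% at lncRNA promoters, 57.9% at protein-coding promoters and 46.8% in distal regions. Repeat-masked sequence made up 50% or more of the central 150 bp in 45 lncRNA promoters (3.0%), 1.21% of protein-coding promoters and 3.90% of distal regions.

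Each peak has a score from the authors, a whole number from 1 to 150. The sources used here do not say what it measures, and it served to rank peaks within a list. The median score of lncRNA promoters was 83 in replicate 1 and 73 in replicate 2, with the middle of the values running from 53 to 115 and from 47 to 102 (25th to 75th percentile). Protein-coding promoters had medians of 115 and 102, and distal regions 63 and 55. Lists of different lengths were put on 1 scale by the percentile of a peak within its own list, and a region was ranked by the lower percentile of both replicates. This lower percentile had a median of 66.6 at lncRNA promoters, 85.5 at protein-coding promoters and 49.2 in distal regions. A region was at or above the 90th percentile in both replicates at 247 of 1500 lncRNA promoters (16.5%, 14.7% to 18.4%), against 41.6% of protein-coding promoters and 4.62% of distal regions.

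Within a CpG class the scores of lncRNA and coding promoters lay close together. Among low-CpG regions the median lower percentile was 61 at lncRNA promoters and 61.5 at protein-coding promoters. Among intermediate regions it was 83.0 and 88.2, and among high-CpG regions 91.9 and 93.2. By gene type, the median was 75 at promoters of processed_transcript genes, 67 at those of lincRNA genes and 62.4 at those of antisense genes. The processed_transcript promoters also had the highest median CpG ratio, 0.42, against 0.32 for lincRNA and 0.27 for antisense promoters.

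**Figure D3:**
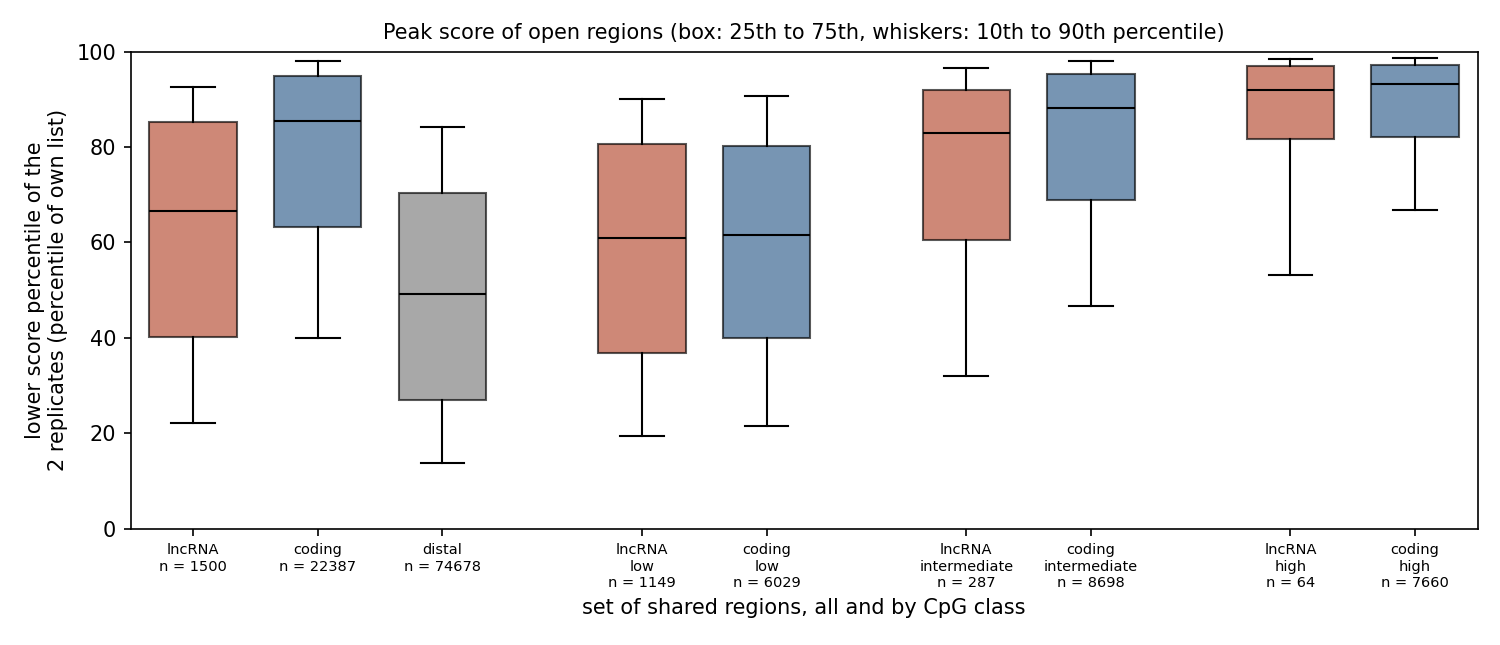
Lower percentile of the peak score over both replicates, within each replicate's own list, for lncRNA promoters, protein-coding promoters and distal regions, all and by CpG class. Lines are medians, boxes span the 25th to 75th and whiskers the 10th to 90th percentiles. The median was 66.6 at lncRNA, 85.5 at protein-coding promoters and 49.2 in distal regions, but 61 and 61.5 at lncRNA and protein-coding promoters low in CpG.

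The replicates ranked the lncRNA promoters alike. Across regions of the same 2 libraries, the rank correlation of the scores was 0.92 at lncRNA promoters, 0.96 at protein-coding promoters and 0.81 in distal regions, given as a description since regions of a library are not independent. The percentile in replicate 1 minus that in replicate 2 had a median of 1.47 points at lncRNA promoters. It differed by over 25 points at 92 of 1500 lncRNA promoters (6.13%, 5.03% to 7.46%), against 2.63% of protein-coding promoters and 11.9% of distal regions. A hotspot, the wider stretch of enriched cleavage that the authors called around peaks, had a median width of 656 bp in replicate 1 and 576 bp in replicate 2 at lncRNA promoters, 1327 and 1225 bp at protein-coding promoters and 360 and 324 bp in distal regions. The hotspot was wider than 1 kb in both replicates at 403 lncRNA promoters (26.9%), against 57.6% of protein-coding promoters and 7.68% of distal regions.

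Most lncRNA promoters lay between genes, and most had an open coding promoter as their neighbour. The centre was outside coding genes at 1215 regions (81.0%), in a coding gene on the opposite strand at 260 (17.3%), in one on the same strand at 23 (1.53%) and in coding genes of both strands at 2. Their median lower percentile was 69.6 outside coding genes, 55.2 on the opposite strand and 62.4 on the same strand. The median distance to the nearest coding TSS was 28186 bp, and 497 regions (33.1%) lay more than 50 kb away. The nearest protein-coding gene had an open promoter at 1164 of 1500 regions (77.6%, 75.4% to 79.6%). For lncRNA genes without a region that share was 58.3% (57% to 59.6%) of 5743, close to the 58.6% of all coding genes. Put the other way, 20.4% (19.2% to 21.6%) of lncRNA genes whose nearest coding gene was open had a region, against 9.35% (8.30% to 10.5%) of those whose nearest coding gene was not. With distance the share of open lncRNA genes was 22.6% (19.2% to 26.5%) at 2.5 to 5 kb from a coding TSS, 18.6% at 5 to 10 kb, 19.99% at 10 to 50 kb and 11.5% (10.4% to 12.6%) beyond 50 kb.

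The hotspot around a region also held a coding TSS at 3 of 1500 lncRNA promoters, in both replicates. The rule kept only centres more than 2.5 kb from coding TSSs. The 90th percentile of hotspot width was 1847 bp in replicate 1 and 1645 bp in replicate 2. This count was therefore bound to be low and does not show whether a region extends a coding promoter. In RefSeq, an annotation made apart from GENCODE, 693 regions (46.2%) lay within 500 bp of the start of a lncRNA, and 93 (6.20%) within 2.5 kb of the start of a messenger RNA. The nearest gene carried a name that RefSeq gives to a protein-coding gene at 31 regions, among them Trerf1, Ifi30, Zswim6 and Tctn2, named here after their values were seen. Without the 93 regions, 1407 were left, with a median lower percentile of 66.1 and 15.6% of lncRNA genes open. At 37 regions lncRNA TSSs on both strands lay within 500 bp, as at Neat1 and Frmd8os.

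The letters of the central 150 bp were searched on both strands for motifs of transcription factors, and a match describes the sequence, not a bound factor. The SP/KLF motif GGGCGG, a GC box of housekeeping promoters, was found in 227 lncRNA promoters (15.1%, 13.4% to 17%), in 42.3% of protein-coding promoters, in 4.86% of distal regions and in 12.6% of all shared regions. The AP-1 motif TGANTCA, bound by Jun and Fos proteins at many distal sites, was found in 201 lncRNA promoters (13.4%, 11.8% to 15.2%), against 4.88% of protein-coding promoters, 17.5% of distal regions and 14.2% of all. For both motifs the lncRNA promoters lay between the coding promoters and the distal regions. In windows shifted 1 kb from the lncRNA promoters towards higher coordinates, whatever the strand of the gene, the shares were 3.33% for SP/KLF and 4.40% for AP-1.

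Part of these shares went with CpG content. Among regions low in CpG, SP/KLF was found in 8.44% (6.97% to 10.2%) of lncRNA promoters, 14.4% of protein-coding promoters and 4.35% of distal regions. AP-1 was found there in 15.9% (13.9% to 18.2%) of lncRNA promoters, 11.7% of protein-coding promoters and 17.9% of distal regions. Among regions high in CpG the SP/KLF share was 59.4% (47.1% to 70.5%) at lncRNA promoters and 61.8% at protein-coding promoters. The ETS motif CCGGAAG was found in 3.60% (2.77% to 4.67%) of lncRNA promoters, 8.97% of protein-coding promoters and 1.10% of distal regions, with 2.67% of all, and that of NRF1 in 1.47% (0.971% to 2.21%), 5.95% and 0.386%, with 1.43% of all. CTCF, a factor that anchors chromatin loops, had a match in 6.73% (5.57% to 8.12%) of lncRNA promoters, 5.80% of protein-coding promoters and 9.63% of distal regions, with 8.60% of all. CCAAT, the motif of NFY, was found in 20.6% of lncRNA promoters, 20.6% of protein-coding promoters, 18.2% of distal regions and 18.4% of all, and in 18.8% of the shifted windows.

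The androgen response element, the palindrome bound by the androgen and glucocorticoid receptors, was sought because the cells were treated with an androgen. With at most 2 mismatches it matched 24 lncRNA promoters (1.60%, 1.08% to 2.37%), 0.719% of protein-coding promoters, 3.48% of distal regions and 2.74% of all. In the windows shifted 1 kb from lncRNA promoters the share was 2.00% (1.40% to 2.84%), and this interval overlapped that of the open core. NFI matched 2.07% (1.46% to 2.92%) of lncRNA promoters, 0.893% of protein-coding promoters, 3.31% of distal regions and 2.65% of all, and EBF 2.00% (1.40% to 2.84%), 1.11%, 2.21% and 1.97%.

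The RFX motif stood at a higher share in lncRNA promoters than in either other set. RFX factors bind this palindrome, the X-box, and are known for genes of cilia. With at most 2 mismatches it matched 36 of 1500 lncRNA promoters (2.40%, 1.74% to 3.30%), 0.956% (0.837% to 1.09%) of protein-coding promoters, 0.941% (0.875% to 1.01%) of distal regions and 0.939% of all, and none of the 1500 shifted windows. With at most 1 mismatch the shares were 0.933% (0.557% to 1.56%), 0.259% and 0.313%. Of the 36 regions 33 were low in CpG, against 76.6% of all lncRNA promoters. Among low-CpG regions the share with a match was 2.87% (2.05% to 4.01%) at lncRNA promoters, 1.48% (1.20% to 1.81%) at protein-coding promoters and 0.943% in distal regions. The TSS lay within 100 bp of the centre in 24 of the 36, against 602 of all 1500. No mismatch was found in 3 lncRNA promoters, shown here in their central 150 bp on the strand of the gene, with the motif in capitals, since they carry the element whole.
1700041B01Rik, chr15:78670465-78670614: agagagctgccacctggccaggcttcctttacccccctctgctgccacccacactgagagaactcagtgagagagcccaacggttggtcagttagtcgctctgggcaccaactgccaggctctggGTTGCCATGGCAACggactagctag
Gm42851, chr5:33948435-33948584: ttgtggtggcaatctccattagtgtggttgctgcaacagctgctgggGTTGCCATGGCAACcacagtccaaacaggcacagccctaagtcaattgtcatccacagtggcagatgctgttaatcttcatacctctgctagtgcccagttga
1700029J03Rik, chr16:93458805-93458954: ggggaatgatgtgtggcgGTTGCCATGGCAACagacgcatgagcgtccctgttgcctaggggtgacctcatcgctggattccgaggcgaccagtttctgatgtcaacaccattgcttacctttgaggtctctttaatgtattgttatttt

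The score was 137 in replicate 1 and 127 in replicate 2 at 1700041B01Rik, 62 and 48 at Gm42851, and 33 and 33 at 1700029J03Rik. A whole element was thus found both in high and in low regions. The highest-ranked region with a match, at 1700064M15Rik, scored 147 and 146.

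**Figure D4:**
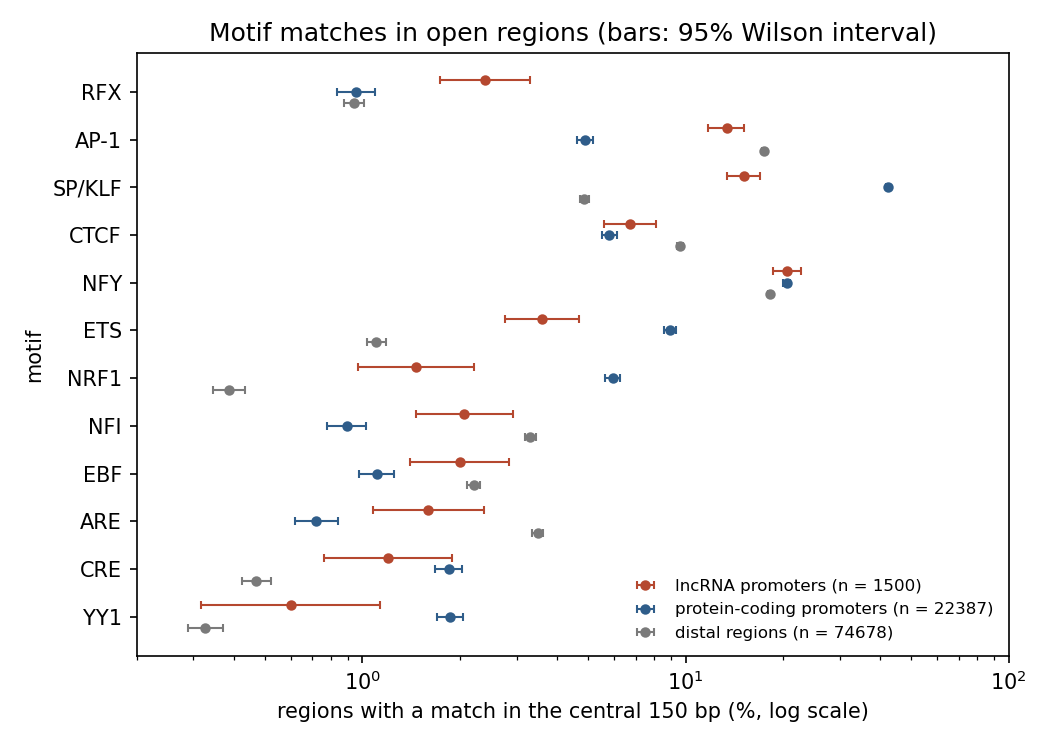
Percentage of lncRNA promoters, protein-coding promoters and distal regions (log scale) with a match to each motif in the central 150 bp, with 95% Wilson intervals. RFX was found in 2.40% of lncRNA promoters, against 0.956% and 0.941%, and for SP/KLF and AP-1 the lncRNA promoters lay between the other sets.

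Among 7 lists of known lncRNA genes, those hosting snoRNAs and those used widely across cell types had the highest shares of open promoters. Counts of listed genes that could hold an open lncRNA promoter, having a TSS more than 2.5 kb from any coding TSS, are to be read beside the 16.1% of all such lncRNA genes that had one, and the 27.3% of those with a name of their own rather than a clone or model name. The lists are short and hold well-studied genes. All values given for a gene are the authors' score at its highest region, in replicate 1 and then replicate 2. That region can lie at any annotated TSS of the gene, also one far inside it. The score was higher in replicate 1 at 75% of all lncRNA promoters, and by percentile 23 of 38 listed genes with an open lncRNA promoter stood higher in replicate 1, close to the 59.7% of all lncRNA promoters. Over all 1104 genes with a region, the median of the lower percentile at the highest region was 71.1.

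The snoRNA hosts are genes whose introns carry the guides of ribosomal RNA modification. Of 17 measured, 10 had an open lncRNA promoter, 5 (Gas5, Snhg1, Snhg3, Snhg9 and Snhg10) had a region only close to a coding TSS, and 2 (Snhg14 and Snhg18) had none. Of the 12 with a TSS far enough from coding TSSs, 10 were open (83.3%). The median lower percentile of the 10 was 95.2, and no score was below 118 in either replicate. Snhg15 (chr11:6528756-6528905), which carries Snora9, scored 147 and 141. Snhg5 scored 144 and 135, Snhg8 143 and 139, Snhg6 142 and 134, Snhg16 (1810032O08Rik) 138 and 133, and Dancr 134 and 131. The lowest 4 were Epb41l4aos at 133 and 125, Snhg12 at 133 and 118, Snhg20 at 125 and 121 and Snhg17 at 120 and 121. In the annotation used, Snhg20 holds a miRNA gene, Mir6516, and no snoRNA gene, so it is a snoRNA host by list only. In the annotation as a whole, 18 of 56 lncRNA genes with a snoRNA gene in their body on the same strand had an open promoter (32.1%, 21.4% to 45.2%), against 16.0% (15.1% to 16.9%) of those without one. Over these 18 hosts the scores ran from 43 to 147 in replicate 1 and from 24 to 141 in replicate 2. Hosts and other genes were not compared in length or number of TSSs.

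The nuclear and widely used lncRNA genes comprised 10 measured, of which 8 had an open lncRNA promoter and the other 2, Tug1 and Crnde, a region only close to a coding TSS. Of the 9 with a TSS far enough from coding TSSs, 8 were open (88.9%), against 16.1% of all such lncRNA genes. Among those with a name of their own the share was 27.3%. The median lower percentile of the 8 was 93.1. Malat1, an abundant RNA of nuclear speckles (chr19:5802576-5802725), scored 130 and 123, and Neat1, the scaffold of paraspeckles, 136 and 117. Both sequences shown above were intermediate in CpG. Pvt1, the neighbour of Myc, had 4 regions, the highest 235458 bp from the Myc TSS (chr15:62222796-62222965), with scores of 144 and 135. The nearest start of a lncRNA in RefSeq was 183623 bp from that region. Trp53cor1 (lincRNA-p21), a target of p53 next to Cdkn1a, scored 139 and 133 at a region low in CpG. Oip5os1 (1700020I14Rik), also called Cyrano, which carries a site for miR-7, scored 137 and 130. Lncpint, another p53 target, scored 135 and 119 at the highest of 8 regions, the largest number at any lncRNA gene. Dubr scored 129 and 124, and Norad (2900097C17Rik), an RNA that binds Pumilio proteins, 107 and 97, the lowest of the list.

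The listed microRNA hosts scored either high or low at their highest region. Of 15 measured, 8 had an open lncRNA promoter, 1 (Mir22hg) had a region only close to a coding TSS, and 6, among them Mir124-2hg, Mir142hg, Mir155hg and Mir205hg, had none. Of the 14 with a TSS far enough from coding TSSs, 8 were open (57.1%). Dleu2, host of miR-15a and miR-16-1, scored 141 and 133 (chr14:61648776-61648945). Mirlet7bhg (Lncppara) scored 134 and 127, Mir100hg (3110039I08Rik) 132 and 115 at the highest of 7 regions, and Mir670hg 122 and 128. On the strand of the gene, this Mir100hg region lay downstream of Mir100 and Mirlet7a-2, though upstream of Mir125b-1. The Mir670hg region lay downstream of both Mir129-2 and Mir670. The scores of Mir100hg and Mir670hg thus belong to TSSs inside the gene, past microRNAs that it holds. Mir9-3hg scored 50 and 44, Mir124a-1hg 48 and 44, C130071C03Rik 39 and 42, and Mir17hg, host of the miR-17-92 cluster, 26 and 40. No listed host scored between 50 and 115, so 4 stood high and 4 low in both replicates, but 13 of the 36 open hosts in the whole annotation lay between these groups in both. Over all lncRNA genes, 36 of 94 with a miRNA gene in their body on the same strand had an open promoter (38.3%, 29.1% to 48.4%), against 15.8% (15.0% to 16.7%) of those without one. Hosts and other genes were not compared in length or number of TSSs, which set how many positions could count. The 36 include Zswim6, a name that RefSeq gives to a protein-coding gene. The 36 hosts had a median lower percentile of 86.4, and 14 were at the 90th percentile or above in both replicates. Over all 1104 genes with a region the median was 71.1, and 234 genes were at the 90th percentile or above in both. Beyond the list, 6720427I07Rik scored 148 and 146, Gm20732, host of Mir30d, 145 and 148, and Dnm3os, host of Mir199a-2 and Mir214, 141 and 124.

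The mature microRNAs of these hosts show which families lay in genes with an open promoter. They are given with the seed (bases 2 to 8), the stretch that pairs with target RNAs, in capitals, from RefSeq on GRCm38.p6. A host's region was not required to lie upstream of its microRNAs. At Gm10505, host of Mir7216, and 6030407O03Rik, host of Mir6351, it lay downstream of the microRNA. The let-7 family, which restrains growth and rises with differentiation, had 6 loci in 4 open hosts. The 5 loci in 6720427I07Rik and Lncppara give 5p RNAs that share 1 seed. Mirlet7a-2 lies with Mir100 and Mir125b-1 in both 3110039I08Rik and Gm49317, which scored 106 and 118. The Gm49317 region lay upstream of these loci, and the highest region of 3110039I08Rik downstream of Mir100 and Mirlet7a-2.
let-7a-5p, in 6720427I07Rik: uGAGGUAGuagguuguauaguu
let-7f-5p, in 6720427I07Rik: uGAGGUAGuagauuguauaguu
let-7d-5p, in 6720427I07Rik: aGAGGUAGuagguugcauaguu
let-7c-5p, in Lncppara: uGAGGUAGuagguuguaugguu
let-7b-5p, in Lncppara: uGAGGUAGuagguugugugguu
miR-16-5p, in Dleu2: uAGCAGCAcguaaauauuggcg
miR-15a-5p, in Dleu2: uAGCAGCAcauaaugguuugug
miR-9-5p, in Gm3764, Mir9-3hg and C130071C03Rik: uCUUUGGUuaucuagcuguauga

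miR-9, a microRNA of neural cells, is encoded at 3 loci, and the host of each had an open promoter. Gm3764, host of Mir9-1, scored 93 and 81 (chr3:88207216-88207365). Mir9-3hg (chr7:79499656-79499885) and C130071C03Rik, host of Mir9-2 (chr13:83732816-83732965), were at the lower scores given above. The order of the 3 loci was the same in both replicates for Gm3764 against the other hosts, while Mir9-3hg and C130071C03Rik lay within 11 score units of each other in either.

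Imprinted, Hox and neural lncRNA genes had shares of open promoters on both sides of the 16.1% over all lncRNA genes. Of the genes with a TSS far enough from coding TSSs, 3 of 7 imprinted (42.9%), 1 of 8 Hox (12.5%) and 3 of 9 neural genes (33.3%) were open. Of 8 imprinted genes measured, 3 had an open lncRNA promoter, Nespas had a region only close to a coding TSS, and 4 (H19, Mirg, Rian and Snhg14) had none. Kcnq1ot1, whose transcription silences neighbouring genes on the paternal chromosome, scored 141 and 128 (chr7:143296556-143296705). Airn, the antisense RNA that silences Igf2r, scored 84 and 66 (chr17:12741236-12741405), and Meg3, a maternally expressed RNA, 71 and 61 (chr12:109545916-109546345). This Meg3 region, the higher of 2, lay inside the gene, downstream of Mir1906-1. Of 11 genes in the Hox clusters, Hoxd3os1 alone had an open lncRNA promoter, at 54 and 80, while 2 had a region only close to a coding TSS and 8, among them Evx1os, Halr1, Hotair and Hottip, had none. Among 13 neural lncRNA genes 3 had an open lncRNA promoter. Six3os1, antisense to the forebrain and eye gene Six3, scored 86 and 60, Rmst, a partner of Sox2 in neurogenesis, 63 and 55, and A830082K12Rik 59 and 47. Another 2 had a region only close to a coding TSS, and 8, including Dlx1as, Dlx6os1, Emx2os and Miat, had none. The 3 open neural genes on the list scored at most 86, whereas the 10 open snoRNA hosts on their list scored at least 118 in both replicates.

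Of 9 genes listed for other lineages, 5 had an open lncRNA promoter, Fendrr had a region only close to a coding TSS, and 3 (Gata6os, Platr10 and Ptgs2os) had none. Of the 8 with a TSS far enough from coding TSSs, 5 were open (62.5%). That share was 16.1% over all such lncRNA genes and 27.3% over those with a name of their own. Lincenc1 (Lncenc1), described in embryonic stem cells, scored 136 and 124. Bvht and Carmn, known from heart and smooth muscle, scored 130 and 110, and 119 and 100. Hand2os1, upstream of the cardiac and sympathetic factor Hand2, scored 105 and 94 at the highest of 3 regions, and Morrbid (Gm14005), known from myeloid cells, 47 and 39. The median lower percentile of the 5 was 86.1, against 71.1 over all genes with a region and 54.8 over the 3 neural genes.

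**Figure D5:**
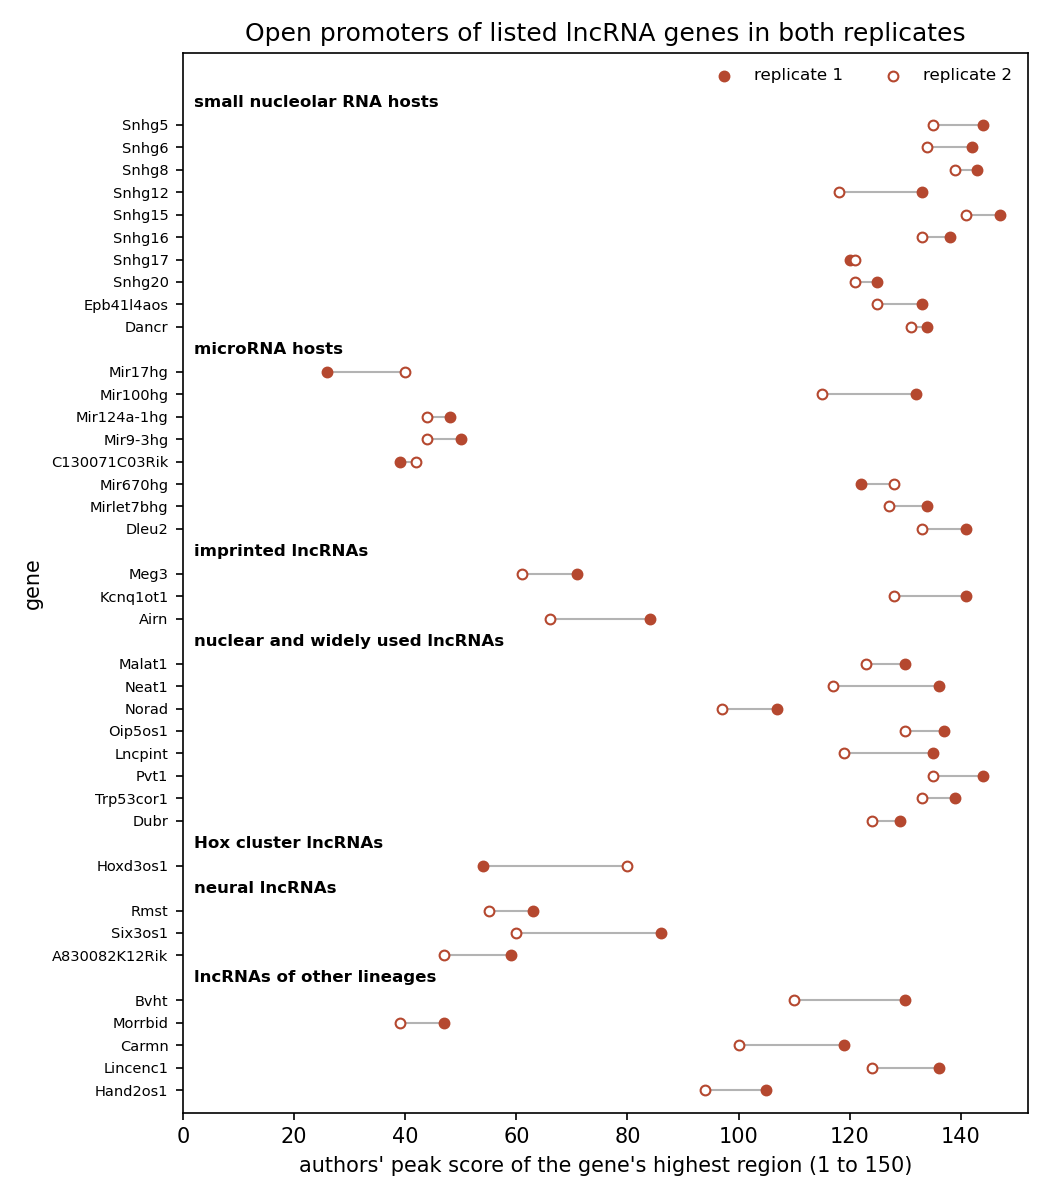
The authors' peak score at the highest region of each listed lncRNA gene with an open promoter, in replicate 1 (filled) and replicate 2 (open), grouped by list. The 10 snoRNA hosts shown lie at or above 118 in both replicates, the 8 microRNA hosts shown fall into 4 at 115 or more and 4 at 50 or less, and the neural genes lie between 47 and 86.

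The 15 regions with the highest lower percentile scored 146 to 150 in replicate 1 and 140 to 147 in replicate 2. None was low in CpG: 5 were high and 10 intermediate, against 76.6% low among all lncRNA promoters. The centre lay upstream of the TSS in 13, outside coding genes in 13, and the nearest coding gene was open in 12. Over all lncRNA promoters these shares were 58.6%, 81.0% and 77.6%. Rab10os (chr12:3235376-3235545), 74509 bp from the TSS of Rab10, scored 149 and 144. It was followed by 1700096K18Rik at 148 and 147 and by 6720427I07Rik, the let-7 host, at 148 and 146. The others were 1700113A16Rik, AC126937.1, Gm34590, 1810026B05Rik, Gm2885, Gm37170, 1700064M15Rik, 1810019N24Rik, Snhg15, 2810410L24Rik, Gm13421 and 4930412M03Rik. Snhg15 was the only one of them on the lists of known lncRNA genes.

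The 5 lncRNA promoters with the widest hotspots were not among the 15 highest-ranked, though 4 of them scored above the median of all lncRNA promoters in both replicates. Gm12703 (chr4:95048276-95048525), 3822 bp from the TSS of Jun, lay in a hotspot of 6169 bp in replicate 1 and 5924 bp in replicate 2 and scored 86 and 56. 2 regions of 2610037D02Rik, 3188 and 2618 bp from the TSS of Arid2, shared a hotspot of 5366 and 5396 bp and scored 98 and 81, and 119 and 105. Gm12974 had a hotspot of 5199 bp in both replicates, 44510 bp from the TSS of Rps6ka1, with scores of 123 and 97, and Gm5532 one of 4639 and 5073 bp, with scores of 124 and 109.

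The regions on which the replicates differed most were low in CpG in all 10 cases, as were 76.6% of all lncRNA promoters. 4933427I22Rik scored 27 in replicate 1 and 75 in replicate 2 at chr4:139933136-139933385, and 27 and 68 at chr4:139943516-139943705. Gm13746 scored 25 and 50, a second region of Hand2os1 49 and 85 (chr8:57315256-57315425), and Gm14011 28 and 48. In the other direction Gm15787, opposite Chfr, scored 102 in replicate 1 and 38 in replicate 2 (chr5:110169516-110169685). AC117261.1 scored 96 and 37, 1700019C18Rik 81 and 33, Gm34388 86 and 37 and B230209E15Rik 68 and 30. The 2 libraries were sequenced on instruments that the labels name for replicate 1 only, and the part of that in these differences was not tested.

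At the edges of the rule, Gm34256 was the farthest from its TSS, at 500 bp, with scores of 112 and 86, and 4933439J24Rik, at 502 bp, fell just outside with 71 and 64. Gm13274, at 2502 bp from a coding TSS, was just inside with 32 and 38, and Gm37885, at 2496 bp, just outside with 57 and 45.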

How the data were processed

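DNase-seq libraries of 2 biological replicates of MN1 were used. The authors called peaks and hotspots in each library alone, from its filtered alignment to mm10, per the file listing of that library. In the sources used here, the aligner and the caller are not given. For each peak the authors deposited a score, used for ranks, description and a threshold inside each list. For each hotspot they deposited the −log10 of a q-value, which was used for no result. A peak list depends on depth and on the caller's threshold.

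Entries outside the main chromosomes were dropped, and 15 duplicates in replicate 1 and 26 in replicate 2 were removed. Shared regions were formed by merging peaks that overlapped by at least 1 bp. Gene models were those of GENCODE M21 and sequence that of RefSeq for GRCm38.p6. Coordinates are 1-based. A region's hotspot is the widest one that overlaps it, and its width is given per replicate. Each core of 150 bp was scanned for motifs in both orientations, with at most 2 mismatches for CTCF, RFX and the androgen response element, 1 for NRF1, NFI and YY1, and none for the other 8 of 14 motifs. Listed symbols absent from the annotation were resolved through RefSeq synonyms, and 4 of them (Snhg4, Snhg7, Peg3os and Cytor) were not matched. Of the others, Haglr, Peg13, Snhg11, Sox1ot and Tunar have another gene type there and were not counted. Genes were named as those of the 15 highest regions, of the 5 regions with the widest hotspots and of the 5 that differed most between replicates in each direction, with every listed gene that has a region. Of listed genes without one, the first 4 in alphabetical order were named. Genes named for a motif, as hosts beyond the list or at the edges of the rule came in addition, after their values were seen.

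The regions and the gene lists were chosen with earlier results of these data known. With 1 group no test was run, and shares are given with 95% Wilson intervals. Alternatives varied the replicates used, the TSS window, the distance to coding TSSs, the overlap, the score threshold, hotspots in place of peaks, the definition of the TSS and the coding annotation. The steps were checked on simulated data. Calculations used Python 3.11.15, numpy 2.4.6 and pandas 2.3.3, and figures matplotlib 3.10.9.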

Additional observations from a re-analysis of the deposited data

Results flagged for a closer look

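Outside the rule, which takes chromosomes 1 to 19, 35 shared regions on chromosome X met its other conditions, at 20 of 142 lncRNA genes there, and none on chromosome Y at 551 genes. The regions of chromosome X were noted because they are signal in data that the description does not use, with no control library beside them. Ftx and Jpx, lncRNA genes within the X inactivation centre, scored 135 and 126, and 137 and 109, at their highest regions. Xist scored 85 and 88, and Firre, a nuclear RNA that contacts several chromosomes, 117 and 104 at its highest region.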

How the results depend on the processing

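No paired analysis was possible because both libraries belong to 1 group. Of 117 values recomputed under 11 settings, 55 stayed within the spread between replicates (1 SD, or 1.5 times for the number of regions) and 62 moved further, and the cause was not tested. The order lncRNA below protein-coding genes in the share of open genes held under all 11. With the peaks of 1 replicate alone, the number of regions was 1826 to 1972, the share of lncRNA genes open 18.3% to 19.95%, CpG-rich regions 3.65% to 4.11%, CTCF 5.58% to 6.52%, AP-1 12.5% to 13.2%, SP/KLF 13.1% to 14.1%, an open nearest coding gene 78.6% to 78.8%, the median score percentile 63.20 to 63.27 and the median hotspot width 512.5 to 548.5 bp; no difference between replicates can be had from 1 of them. A TSS window of 250 bp left 975 regions, with 12.7% of lncRNA genes open, AP-1 in 12.8%, SP/KLF in 18.2%, an open nearest coding gene for 74.1% and a median lower percentile of 70.3. A window of 1 kb gave 2349 regions, 21% of lncRNA genes open, 3.36% CpG-rich, SP/KLF in 13.4%, an open nearest coding gene for 80.2%, a width of 457 bp and a percentile of 62.4. The stronger 50% of peaks gave 993 regions, 11.2% of lncRNA genes open, 5.94% CpG-rich, CTCF in 7.85%, AP-1 in 12.5%, SP/KLF in 19.6%, an open nearest coding gene for 74.6%, a width of 813 bp and a percentile of 79.9. Hotspots in place of peaks, which have no score, gave 14.8% of lncRNA genes open, 3.73% CpG-rich, CTCF in 5.55%, AP-1 in 11.4%, SP/KLF in 13.2%, an open nearest coding gene for 72.2% and a width of 378 bp. With the 5′ end as the only TSS, 7.68% were CpG-rich, AP-1 was found in 12.4% and SP/KLF in 18.4%, the nearest coding gene was open for 66.7% and the width was 545 bp. At more than 1 kb from coding TSSs 4.99% were CpG-rich, AP-1 was found in 12.8% and the nearest coding gene was open for 79.2%, and at more than 5 kb CTCF was found in 5.97% and the nearest coding gene was open for 76.9%. With an overlap of 75 bp, SP/KLF was found in 16% and the nearest coding gene was open for 75.9%. Also 2.5 kb from RefSeq messenger RNA starts, a setting chosen after seeing the data, 3.84% were CpG-rich and SP/KLF was found in 14.4%. The RFX share, recomputed as an addition chosen after seeing the data, ran from 1.87% to 3.08% over all 11 settings. Unknown depth limits what a missing peak can show.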

Other observations

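Open lncRNA promoters were not spread evenly over the chromosomes. On chromosome 17, 84 of 298 lncRNA genes had a region (28.2%, 95% Wilson interval 23.4% to 33.5%), against 15.6% (14.7% to 16.5%) of those on the other autosomes, which ran from 11.4% on chromosome 12 to 21% on chromosome 11. The share of open protein-coding genes on chromosome 17 was 59.8%, and its distal regions numbered 33.7 per Mb, both within the range of the other autosomes. Chromosome 17 was singled out after its value was seen.

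Many mouse lncRNA genes carry the name of a cDNA clone, and names that begin with 1700 or with 4921 to 4933 come mostly from testis libraries. Of 133 lncRNA promoters at genes so named, 12 had an RFX match (9.02%, 5.24% to 15.1%), against 24 of 1367 others (1.76%, 1.18% to 2.60%). AP-1 matched 9.77% (5.80% to 16%) of the regions at genes so named and 13.8% (12% to 15.7%) of the others, and CTCF 6.77% and 6.73%. Of the genes so named, 13.2% (11% to 15.8%) had an open promoter, against 16.5% (15.6% to 17.4%) of the others. This grouping too was chosen after values were seen. Genes with a name of their own had an open promoter at 80 of 293 (27.3%, 22.5% to 32.7%), against 15.6% (14.8% to 16.5%) of genes with a clone or model name.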
